A study of Homo sapiens with 12 samples.

Results

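The interferon response genes described here are 47 human genes whose transcription is known to rise when a cell senses interferon. They were chosen by gene symbol from a list of sensors, transcription factors and antiviral effectors. Of the 27146 genes that occurred in any of the comparison tables, these were 47. They were followed in MDA-MB-231, an established line of human breast cancer cells of the triple-negative kind, in which RNA was sequenced after 48 h with DMSO alone (Ctrl) or with SAHA, compound 1 or a6, each at 2.5 µM. There were 3 libraries in each of these 4 groups and 12 altogether, and the labels name no interferon treatment. SAHA (vorinostat) inhibits histone deacetylases, and per the labels SAHA and compound 1 have 1 target each while a6 acts on histone deacetylases and on G-quadruplexes, folds of guanine-rich nucleic acid. The labels call the libraries biological replicates of this line without naming separate cultures, so p-values measure the spread between these libraries, which may be technical.

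In the textbook account, foreign or misplaced RNA and DNA are sensed by helicases and other receptors, which switch on interferon genes. Secreted interferon binds receptors on the same or neighbouring cells, JAK kinases phosphorylate STAT proteins, and STAT2 joins IRF9 in a complex called ISGF3. ISGF3 binds the interferon-stimulated response element (ISRE), a short stretch with a repeated GAAA, before the start of many genes, and many of the products block steps of virus growth. Tumour cells often keep a low level of such transcripts in the absence of added interferon.

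The ISRE is what many of these genes share in sequence, so the promoters of members that changed are shown first. The sequences are the 170 bases before an annotated start, 5′ to 3′ on the gene's own strand, from RefSeq on GRCh38.p14, and they are those of 1 member that rose and 4 that fell with SAHA. Capitals mark every match to the ISRE core on either strand, here GAAA, any 2 bases and GAAA, and neighbouring matches can overlap. For IFIT3, 1 of its 2 windows is shown.
IFI6 (chr1:27672193-27672362, minus strand): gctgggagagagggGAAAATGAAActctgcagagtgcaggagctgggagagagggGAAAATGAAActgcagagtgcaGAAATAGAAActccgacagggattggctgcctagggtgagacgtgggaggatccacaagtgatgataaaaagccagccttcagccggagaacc
ISG15 (chr1:1013327-1013496, plus strand): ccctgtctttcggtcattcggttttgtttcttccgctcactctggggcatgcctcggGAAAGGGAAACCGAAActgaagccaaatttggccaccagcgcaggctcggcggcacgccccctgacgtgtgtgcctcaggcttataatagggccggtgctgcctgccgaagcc
IFIT3 (chr10:89327827-89327996, plus strand): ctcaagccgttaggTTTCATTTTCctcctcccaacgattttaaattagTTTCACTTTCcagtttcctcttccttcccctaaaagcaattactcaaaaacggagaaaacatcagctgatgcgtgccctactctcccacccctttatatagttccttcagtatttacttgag
IFITM1 (chr11:313870-314039, plus strand): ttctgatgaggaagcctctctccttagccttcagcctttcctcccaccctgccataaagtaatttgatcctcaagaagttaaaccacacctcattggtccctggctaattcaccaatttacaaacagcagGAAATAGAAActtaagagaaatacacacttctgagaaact
DDX60 (chr4:168318753-168318922, minus strand): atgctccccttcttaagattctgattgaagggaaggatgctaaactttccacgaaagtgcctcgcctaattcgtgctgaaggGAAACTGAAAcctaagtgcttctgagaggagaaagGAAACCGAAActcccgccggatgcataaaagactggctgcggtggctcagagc
IFI6, the 1 member shown that rose, had 3 such matches in the stretch shown. ISG15, IFIT3 and DDX60, which fell, had 2 each and IFITM1, which also fell, had 1. Among the windows shown, the core was therefore present in members that moved in either direction, but for a rise this rests on IFI6. SP110, which also rose with SAHA, is not shown and held no match.

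Over whole windows of 300 bases, from 250 before to 50 after a start, 38 of the 47 members were matched to a RefSeq window, and 24 of the 38 (63.2%) held the ISRE core. Among all 27305 genes with such a window, 1195 (4.38%) held it. Of the members with a window, the core was found in 4 of 4 that fell with SAHA, in 1 of 2 that rose and in 18 of 30 that were not called. Of the 8 members that fell, OASL, IRF7, IFIT2 and UBA7 were not matched to a window and are not in these counts. SP110, the other member that rose, held no match to these letters in its windows. The gamma-activated sequence, here TTC, any 3 bases and GAA on either strand, was found in 11 of the 38 members (28.9%) and in 9.38% of all genes. A pattern of 4 runs of guanine able to form a G-quadruplex was found in 10 of the 38 members (26.3%) and in 27.9% of all genes. These are matches of letters and not measured binding or folding.

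**Figure D1:**
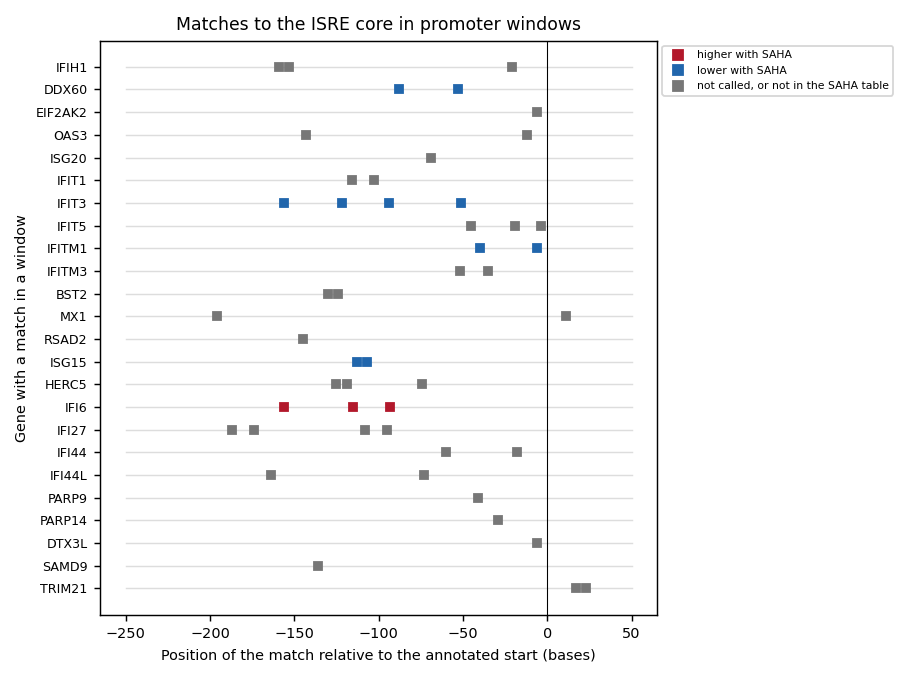
Position of each match to the ISRE core relative to the annotated start (bases, horizontal axis) for the 24 members with a match (rows), with all windows of a gene drawn on 1 row and colour giving the call with SAHA. Most matches lie before the start, at positions from 196 bases before it, and IFI6 (red) and IFIT3, ISG15, IFITM1 and DDX60 (blue) are spread among uncalled members (grey).

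The deposited tables give comparisons and no values per library, so the levels below are mean normalized read counts over 3 libraries, computed for Ctrl and the compound from each table's overall mean and fold change, and library depth is unknown here. Line markers fitted the label in part. The 6 mesenchymal markers listed as high were in every table with 0 called, but SPARC among them was low, with an overall mean of 20.9 normalized counts for compound 1 per the authors' deposited table. Of markers listed as low or absent, ESR1 and PGR appeared in the compound 1 table alone, at counts of 0.489 and 0.317 on average per the authors' deposited table. KRT19, ERBB2 and EPCAM, listed likewise, were in each table, with overall means for compound 1 of 6469, 2088 and 171 normalized counts per the authors' deposited table, so KRT19 and ERBB2 went against that listing. With SAHA 4 of these 6 markers were measured and 0 called, but 3 had an unadjusted p under 0.05, beside 18.4% of all genes. Their log2 fold changes ran from -0.66 (ERBB2) to 1.43 (CDH1) in the authors' deposited table. Their summed level was 9357 in Ctrl and 14275 with SAHA. It was 9331 and 8139 with compound 1 (6 markers) and 9134.5 and 8520 with a6 (3 markers). The mitochondrially encoded genes, which were read as an RNA quality measure, had 0 of 13 called with each compound, and their median log2 fold change computed from the authors' deposited table was 0.06 with SAHA, -0.23 with compound 1 and -0.01 with a6. All 13 lay below 0 with compound 1, against 3 with SAHA and 8 with a6. Their summed level was 290822 in Ctrl and 247517 with compound 1. As no gene of any kind was called with compound 1, the absence of calls there says little. Of 8 haematopoietic markers, PTPRC, CD3E, MS4A1 and LILRA4 were in none of the tables. The summed level of the 3 in the SAHA table, computed from the authors' deposited table, came to 35.9 in Ctrl and 120 with SAHA, and CD14 and ITGAX among them rose. With compound 1 it was 35.8 in Ctrl and 22.0 (3 markers), and with a6, where CD14 was the marker measured, 27.6 and 18.5. The part of these markers in the results below was not tested.

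In Ctrl the members covered a wide range of levels. Per kilobase of annotated exon, the mean level from the authors' deposited table for compound 1 was highest for IFITM3 at 2264, BST2 at 2237 and ISG15 at 1896. IFITM2 followed at 485, UBE2L6 at 303, IFI6 at 201 and IFITM1 at 200, and the median over the 47 members was 39.9. IFITM3 restricts virus entry, BST2 (tetherin) holds virus particles at the cell surface, and ISG15 is a ubiquitin-like protein. IFI44L and CMPK2 were lowest, at 0.103 and 0.182. Before division by length, 12 members had a Ctrl level under 50 and 6 under 10. The spread of these levels between libraries is not in the tables, so neighbours in this order cannot be told apart by a test.

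Most interferon response genes did not pass with SAHA, and those that did were mostly lower. Of 45 members in the SAHA table, 8 fell and 2 rose at an adjusted p under 0.05 (the authors' DESeq2 Wald test), and 35 did not pass. The members that fell were DDX60, IFITM1, IFIT3, OASL, IFIT2, ISG15, UBA7 and IRF7, and those that rose were IFI6 and SP110. Of all 18534 genes in that table, 7.55% were called, 4.53% higher and 3.02% lower, against 2 and 8 of the 45 members. The members' median log2 fold change computed from the authors' deposited table was -0.39, with 32 below 0 and 13 above, beside a median of -0.01 over all genes, of which 50.7% lay below 0. Over all of its genes 839 were higher and 560 lower. After removal of the trend of fold change on GC content these were 837 and 359, while members gave 1 higher and 7 lower. Restricted to overall means of at least 50 normalized counts, 446 genes were higher and 521 lower, and of 34 members 2 and 7. The lean of all genes towards higher was thus absent at these counts. CMPK2 and IFI44L were not in the SAHA table. In bulk RNA, fewer cells of a type and less RNA per cell cannot be told apart.

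Compound 1 moved none of them past the threshold, and a6 moved 3. Of the 47 members, all listed for compound 1, 0 passed in the authors' DESeq2 test, 0 at an unadjusted p under 0.05, beside 0% of 27126 genes called and 0.199% at that unadjusted p. That share lies far below what an unadjusted p under 0.05 gives when no gene changes. The test thus called very few genes with compound 1, and these counts of 0 say little by themselves. The members' median log2 fold change computed from the authors' deposited table was 0.09, with 29 above 0 and 18 below, beside 0.01 over all genes, of which 51.4% lay above 0. In the a6 table IFI6 rose and OASL and DDX60 fell, 3 of 41 members, beside 0.583% of 15255 genes called, 0.243% higher and 0.341% lower. Their median computed from the authors' deposited table was -0.44, with 31 below 0 and 10 above, beside -0.03 over all genes, of which 54.1% lay below 0. Over the 32 members with an overall mean of at least 50 normalized counts it was -0.25, beside -0.03 over all such genes. IRF9, OAS1, RSAD2, CMPK2, IFI44L and TRIM22 were not in the a6 table, whose lowest overall mean was 9.31 normalized counts (the authors' deposited table). All 3 comparisons use the same Ctrl libraries, so their values are not independent of each other. At an unadjusted p under 0.05 there were 14 of 45 members with SAHA, beside 18.4% of all genes, and 12 of 41 with a6, beside 7.41%.

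**Figure D2:**
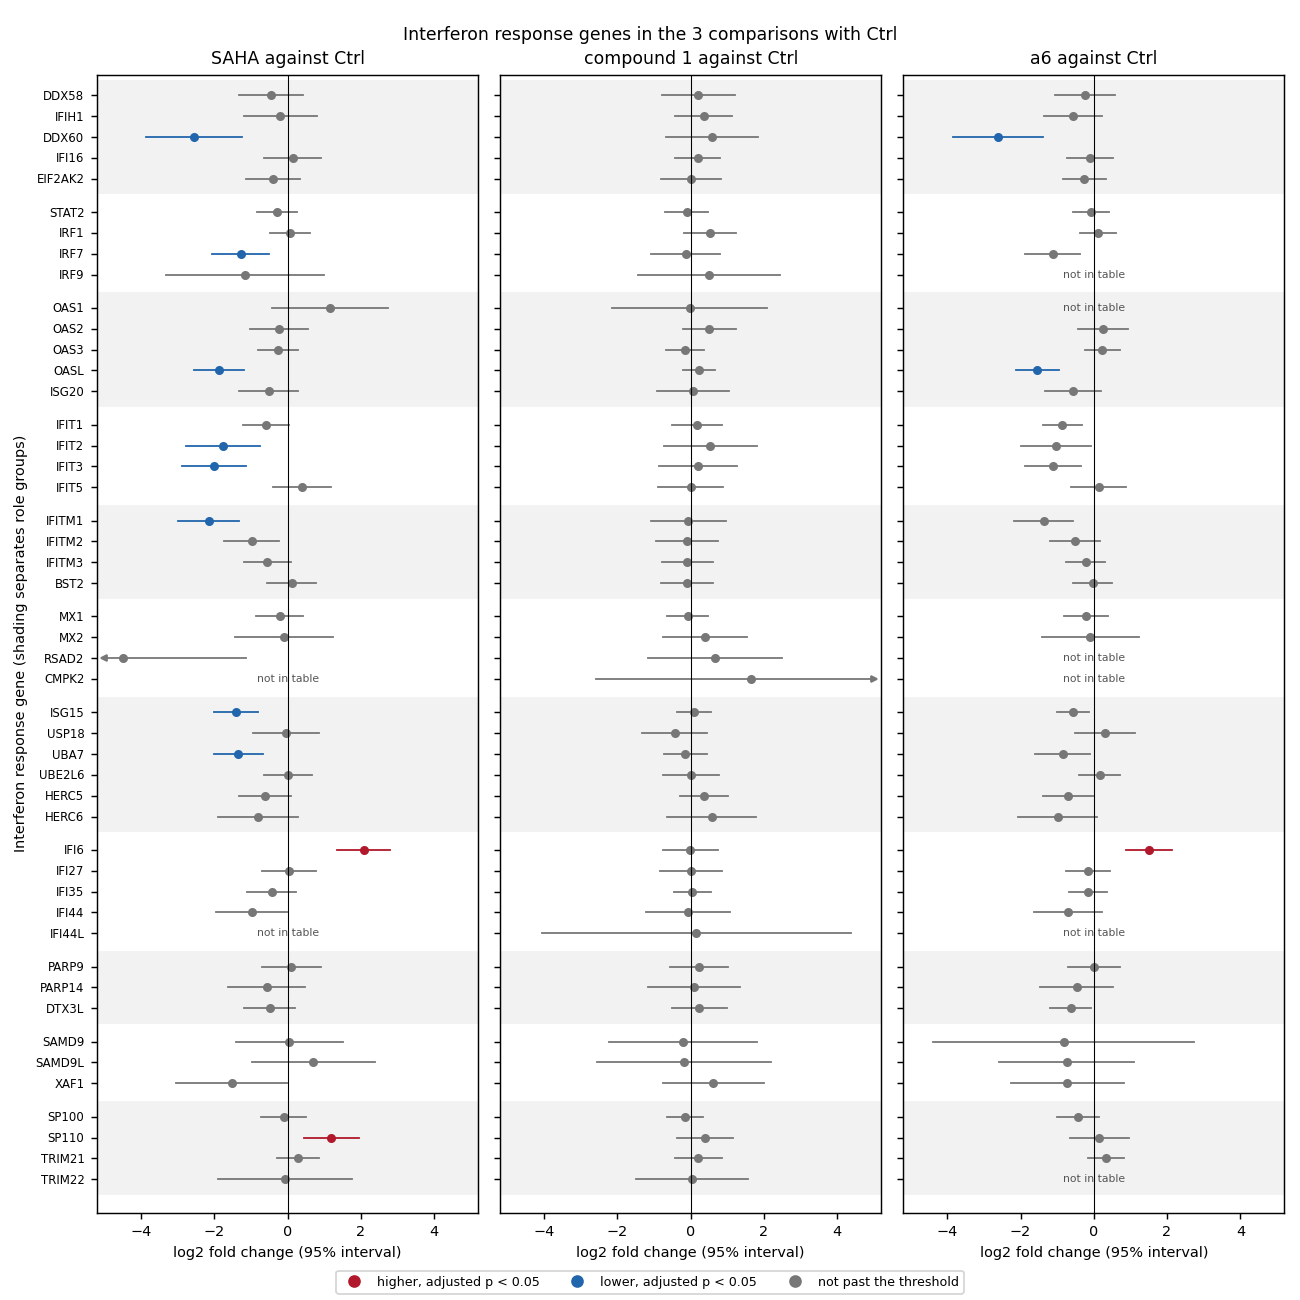
Log2 fold change against Ctrl (horizontal axis) with its 95% interval for each of the 47 genes (rows, shaded by role), in 1 panel per compound, with colour marking an adjusted p under 0.05 and arrows marking intervals that run off the axis. With SAHA 8 coloured genes lie left and 2 right of 0, with compound 1 all 47 are grey, and with a6 3 are coloured. With SAHA some grey intervals also lie wholly left of 0, among them those of RSAD2 and IFITM2.

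Among RNA and DNA sensors, DDX60, a helicase linked to RIG-I signalling at chromosome 4, 168216293 to 168318807 on GRCh38, changed with SAHA and with a6. Its mean level, from the authors' deposited tables, was 76.0 in Ctrl and 12.9 with SAHA, 74.6 in Ctrl and 12.1 with a6, and 76.6 in Ctrl and 114 with compound 1. It was thus lowest with SAHA and a6, at similar levels, and highest with compound 1. In the authors' deposited table its log2 fold change with SAHA was -2.56 with a standard error of 0.67 (adjusted p = 0.00418), and with a6 it was -2.62 with 0.63 (adjusted p = 0.0106). With compound 1 it was 0.57 with 0.64 in the authors' deposited table. The other 4 sensors, DDX58 (RIG-I), IFIH1 (MDA5), IFI16 and EIF2AK2 (the kinase PKR), lay between -0.45 and 0.14 with SAHA, between 0.01 and 0.35 with compound 1 and between -0.58 and -0.10 with a6 in the authors' deposited table, with 0 calls.

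Among the transcription factors, IRF7, which drives interferon alpha genes and lies at chromosome 11, 612553 to 615999, fell with SAHA. Its mean level, from the authors' deposited tables, was 359 in Ctrl and 147 with SAHA, and it was 160 with a6 and 325 with compound 1. Its log2 fold change with SAHA was -1.29 with a standard error of 0.39 (adjusted p = 0.0194) in the authors' deposited table. This call was lost after removal of the GC trend (-0.96, adjusted p = 0.133) and when p-values were adjusted over all 3 tables together (adjusted p = 0.0556). With a6 it was -1.13 with 0.39 (adjusted p = 0.224) in the authors' deposited table. STAT2 and IRF1 lay at -0.30 and 0.07 with SAHA, at -0.11 and 0.53 with compound 1 and at -0.08 and 0.10 with a6 in the authors' deposited table, without passing. IRF9 had a mean level of 6.96 in Ctrl and 3.10 with SAHA, from the authors' deposited table, and 48.4% of its exon bases are shared with another annotated gene on the same strand, so its count is uncertain.

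In the oligoadenylate synthetase family, whose members make the messenger that activates RNase L, OASL fell with SAHA and with a6. OASL, at chromosome 12, 121019111 to 121039242, resembles these enzymes but lacks their activity and aids RIG-I. Its mean level, from the authors' deposited tables, was 287 in Ctrl and 78.9 with SAHA, 280 in Ctrl and 96.2 with a6, and 286 in Ctrl and 334 with compound 1. The levels with SAHA and a6 thus lay far below Ctrl, and the level with compound 1 did not. Its log2 fold change with SAHA was -1.86 with a standard error of 0.35 (adjusted p = 8.55e-06) and with a6 -1.54 with 0.30 (adjusted p = 0.000298) in the authors' deposited table. OAS2 and OAS3 lay at -0.24 and -0.26 with SAHA and at 0.24 and 0.23 with a6 in the authors' deposited table, and OAS1 rested on a mean level of 8.35 in Ctrl. ISG20, an exonuclease of RNA, lay at -0.52 with SAHA and -0.57 with a6 in the authors' deposited table, and 0 of these 4 passed with any compound.

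The IFIT proteins bind foreign RNA ends and block translation, and their genes lie side by side on chromosome 10. IFIT3, at 89327894 to 89340971, had a mean level, from the authors' deposited tables, of 331 in Ctrl and 82.1 with SAHA, of 150 with a6 and of 380 with compound 1. IFIT2, at 89283694 to 89309276, stood at 145 in Ctrl and 43.0 with SAHA, at 69.5 with a6 and at 211 with compound 1, again as computed from the authors' deposited tables. Both genes had their lowest mean with SAHA, an intermediate one with a6 and their highest with compound 1. Not every step of this order was called. With compound 1 the log2 fold change was 0.19 with a standard error of 0.54 for IFIT3 and 0.54 with 0.65 for IFIT2, in the authors' deposited table. Neither gene was called between a6 and SAHA. With SAHA IFIT3 fell by 2.01 in log2 units with a standard error of 0.45 (adjusted p = 0.000363) and IFIT2 by 1.75 with 0.52 (adjusted p = 0.0140) in the authors' deposited table. With a6 they were at -1.11 with 0.39 (adjusted p = 0.225) and at -1.03 with 0.49 (adjusted p = 0.590) in the authors' deposited table. IFIT1 was at -0.59 with SAHA and at -0.86 with a6 (adjusted p = 0.123), and IFIT5 at 0.39 and 0.13 in the authors' deposited table, so the 4 neighbours did not all show the same sign.

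Among the IFITM proteins, membrane proteins that hinder virus entry, IFITM1 fell with SAHA. IFITM1, at chromosome 11, 313506 to 315272, had a mean level, from the authors' deposited tables, of 217 in Ctrl and 48.9 with SAHA, of 82.1 with a6 and of 207 with compound 1. Its log2 fold change with SAHA was -2.15 with a standard error of 0.43 (adjusted p = 3.69e-05), and with a6 -1.37 with 0.41 (adjusted p = 0.0998) in the authors' deposited table. IFITM2 was at -0.98, IFITM3 at -0.56 and BST2 at 0.11 with SAHA in the authors' deposited table, and these 3 did not pass. IFITM1 and IFITM2 are neighbours with 351 annotated exon bases in common on the same strand, so how reads were shared between them is uncertain.

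The MX proteins, GTPases that trap virus particles, showed no call: MX1 lay at -0.21 with SAHA, -0.09 with compound 1 and -0.22 with a6 in the authors' deposited table, and MX2 within 0.40 of 0 in each. RSAD2 (viperin, which makes a chain-terminating nucleotide) was rare in these cells, with a mean level, from the authors' deposited tables, of 7.32 in Ctrl, 0.324 with SAHA and 11.9 with compound 1. Its test with SAHA gave an unadjusted p of 0.00889 and an adjusted p of 0.0921, per the authors' deposited table, and no fold is given at so low a level. CMPK2, its neighbour and a mitochondrial nucleotide kinase, was measured in the compound 1 table alone, with an overall mean of 1.62 normalized counts per the authors' deposited table.

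ISG15 and the enzyme that activates it for conjugation both fell with SAHA. ISG15, at chromosome 1, 1001138 to 1014540, had a mean level, from the authors' deposited tables, of 1788 in Ctrl and 670 with SAHA, of 1181 with a6 and of 1894 with compound 1. UBA7, its activating enzyme at chromosome 3, 49805207 to 49813946, stood at 313 in Ctrl and 123 with SAHA, at 169 with a6 and at 282 with compound 1, as computed from the authors' deposited tables. For both genes the SAHA mean was the lowest and the a6 mean lay between SAHA and Ctrl, but neither gene was called between a6 and SAHA. With SAHA ISG15 was at -1.42 with a standard error of 0.31 (adjusted p = 0.000273) and UBA7 at -1.35 with 0.34 (adjusted p = 0.00284) in the authors' deposited table. With a6 they were at -0.57 with 0.22 (adjusted p = 0.378) and at -0.85 with 0.38 (adjusted p = 0.540) in the authors' deposited table. The conjugating enzyme UBE2L6 lay at 0.01, the ligase HERC5 at -0.62, its relative HERC6 at -0.81 and the deconjugating protease USP18 at -0.05 with SAHA in the authors' deposited table, and 0 of these 4 passed with any compound.

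**Figure D3:**
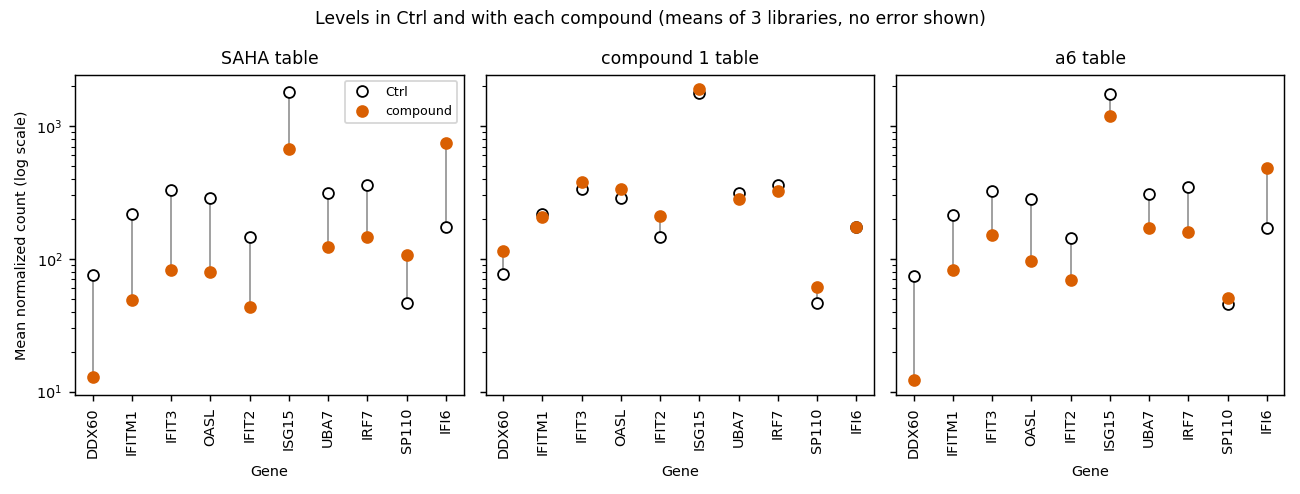
Mean normalized count on a log axis, computed from each deposited table, in Ctrl (open circles) and with the compound (filled circles) for the 10 genes called with SAHA, each a mean of 3 libraries with no error shown. ISG15 goes from 1788 to 670 and IFI6 from 175 to 739 with SAHA, while with compound 1 the circles of IFI6 coincide.

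Among the members grouped by their IFI names, IFI6 rose with SAHA and with a6. IFI6, a hydrophobic protein of the endoplasmic reticulum and mitochondria, lies at chromosome 1, 27666061 to 27672218. Its mean level, from the authors' deposited tables, was 175 in Ctrl and 739 with SAHA, 171 in Ctrl and 484 with a6, and 174 in Ctrl and 173 with compound 1. SAHA and a6 thus both lay well above Ctrl, and compound 1 lay at the Ctrl level. Its log2 fold change was 2.08 with a standard error of 0.37 with SAHA (adjusted p = 2.33e-06) and 1.50 with 0.32 with a6 (adjusted p = 0.00153) in the authors' deposited table. With compound 1 it was -0.01 with a 95% interval from -0.77 to 0.75, computed from the authors' deposited table. IFI27, IFI35 and IFI44 lay at 0.04, -0.44 and -0.98 with SAHA and at -0.16, -0.15 and -0.71 with a6 in the authors' deposited table, without passing. IFI44L was measured in the compound 1 table alone, with an overall mean of 1.11 normalized counts per the authors' deposited table.

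SP110, a nuclear body protein at chromosome 2, 230167293 to 230225729, was the other member that rose with SAHA. Its mean level, from the authors' deposited tables, was 46.6 in Ctrl and 106 with SAHA, 50.7 with a6 and 60.8 with compound 1. With SAHA its log2 fold change was 1.19 with a standard error of 0.38 (adjusted p = 0.0316), and with a6 0.15 with 0.41 in the authors' deposited table. The call was lost after removal of the GC trend (1.11, adjusted p = 0.0555) and with adjustment over all 3 tables (adjusted p = 0.0898). Its exons overlap 170 bases of SP140 and 1262 bases of an antisense transcript on the other strand, and the strandedness of the counting was not given in the sources used here. The nuclear body protein SP100 and the ligases TRIM21 and TRIM22 lay between -0.11 and 0.29 with SAHA in the authors' deposited table, without passing.

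The remaining members did not pass with any compound. DTX3L, a ubiquitin ligase that pairs with PARP9, was at -0.49 with SAHA, 0.24 with compound 1 and -0.63 with a6 in the authors' deposited table, and PARP9 and PARP14 lay between -0.58 and 0.23 over the 3 tables. XAF1, a protein that promotes cell death, had a mean level, from the authors' deposited table, of 18.2 in Ctrl and 6.32 with SAHA (adjusted p = 0.266). SAMD9 and SAMD9L, which restrain growth and viruses, lay at 0.05 and 0.70 with SAHA and at -0.82 and -0.74 with a6 in the authors' deposited table. The standard error of SAMD9 with a6 was 1.82 in the authors' deposited table, so its value there says little.

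How far an uncalled value can be taken as small differed by compound. The 95% interval computed from the authors' deposited table lay wholly within 2-fold of Ctrl for 20 of 47 members with compound 1, for 17 of 41 with a6 and for 12 of 45 with SAHA. The standard errors of the members had a median of 0.43 with compound 1, 0.35 with a6 and 0.40 with SAHA. For the rest the interval reached past a 2-fold change.

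The 3 compounds were compared directly as 3 pairs, at the same dose and time, through the difference of their log2 fold changes against Ctrl. Each difference was computed from the authors' deposited tables with an error that sums the squared standard errors of both and takes the root, and a two-sided z test, adjusted over all genes of both tables. The shared Ctrl libraries make this error too large, so an error correlation of 0.5 was also tried. Between SAHA and compound 1, IFI6 was higher and OASL and ISG15 were lower with SAHA, 3 of 45 members, beside 1.06% of all genes called, 0.583% higher and 0.481% lower. Over all genes the split was 108 higher and 89 lower, and 116 and 61 after removal of the GC trend. With overall means of at least 50 normalized counts in both tables it was 53 and 87, while members gave 1 and 2. OASL differed by -2.09 with a standard error of 0.41 (adjusted p = 0.000261), IFI6 by 2.09 with 0.54 (adjusted p = 0.0160) and ISG15 by -1.50 with 0.39 (adjusted p = 0.0175), computed from the authors' deposited tables. The ISG15 call was lost after removal of the GC trend (-1.31, adjusted p = 0.0661). With the error correlation 9 members were called, beside 5.33% of all genes, the others being DDX60, IFIT2, IFIT3, IFITM1, RSAD2 and UBA7.

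Between a6 and compound 1, OASL alone of 41 members was called, beside 0.0328% of all genes. It was lower with a6, the difference being -1.77 with a standard error of 0.37 (adjusted p = 0.00883), computed from the authors' deposited tables. DDX60 differed by -3.19 with 0.89 (adjusted p = 0.448) and IFI6 by 1.51 with 0.50 (adjusted p = 1.00), computed from the same tables. With the error correlation both passed (adjusted p = 0.000603 and 0.0136), making 3 members beside 0.289% of all genes.

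Between a6 and SAHA 0 of 41 members were called by the z test, beside 0.256% of all genes, and again 0 with the error correlation, beside 3.54%. Of the same 41, 1 had an unadjusted p under 0.05, beside 5.56%. That member was ISG15, lower with SAHA than with a6, with a difference of 0.85, a standard error of 0.38 and a 95% interval from 0.11 to 1.60 (unadjusted p = 0.0253, adjusted p = 0.720), computed from the authors' deposited tables. With the error correlation its adjusted p was 0.0551. For IFI6 the difference of -0.57 had an interval from -1.53 to 0.38, for OASL that of 0.32 one from -0.58 to 1.22, and for DDX60 that of -0.06 one from -1.86 to 1.74, computed from the same tables. The intervals of IFIT3 (-0.26 to 2.05), IFITM1 (-0.38 to 1.94) and SP110 (-2.14 to 0.07) were as wide. In all, 5 of 41 intervals lay within 2-fold, so these data do not show that SAHA and a6 acted alike on these genes, nor that they differed.

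**Figure D4:**
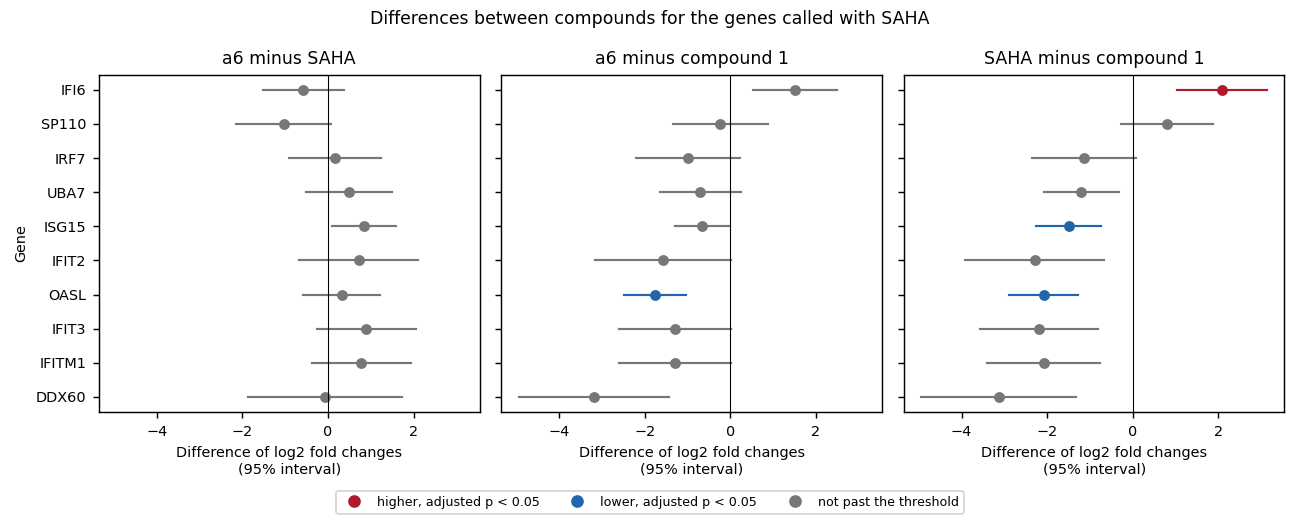
Difference of log2 fold changes between compounds (horizontal axis) with its 95% interval for the 10 genes called with SAHA, in 1 panel per pair, with colour marking an adjusted p under 0.05. IFI6, ISG15 and OASL are coloured between SAHA and compound 1, OASL alone between a6 and compound 1, and none between a6 and SAHA.

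The rest of the pathway was read from a list of 97 further genes. None of the 12 interferon ligand genes listed was in any table. The receptors (0 of 5 called) and the kinases and STATs (0 of 5) did not pass with SAHA, and their medians computed from the authors' deposited table were 0.01 and -0.09. Of 11 genes of sensing and induction upstream of interferon 3 fell and 0 rose with SAHA, and of 10 negative regulators 1 fell. Of 45 other interferon-stimulated genes 3 rose and 5 fell with SAHA. Over all groups 3 of 76 rose and 9 fell, beside 4.53% higher and 3.02% lower over all genes, with a median of -0.12 computed from the authors' deposited table. With compound 1 0 of 84 passed, 0 of them at an unadjusted p under 0.05, beside 0.199% of all genes. With a6 0 of 71 passed in the authors' DESeq2 test and 10 had an unadjusted p under 0.05, beside 7.41% of all genes.

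LAMP3, a lysosomal membrane protein of mature dendritic cells, rose with SAHA, from a mean level of 28.9 in Ctrl to 193 with SAHA by the authors' deposited table (log2 fold change 2.74, standard error 0.38, adjusted p = 1.74e-10). It was at 0.56 with a6 and 0.36 with compound 1 in the authors' deposited table. MOV10, an RNA helicase, fell by 1.25 with a standard error of 0.27 (adjusted p = 0.000226), PHF11 by 2.16 with 0.48 (adjusted p = 0.000360) and DHX58, the RIG-I relative LGP2, by 1.67 with 0.37 (adjusted p = 0.000431) with SAHA in the authors' deposited table. With a6 these 3 were at -0.66, -0.95 and -0.78 in the authors' deposited table, short of the threshold. Between SAHA and compound 1 the differences of 4 pathway genes, computed from the authors' deposited tables, passed: LAMP3 (2.38, adjusted p = 0.0120), NMI (-2.83, adjusted p = 0.0157), DHX58 (-1.79, adjusted p = 0.0227) and the DNA sensor CGAS (-1.18, adjusted p = 0.0419). NMI and CGAS fell with SAHA, at -2.56 and -0.92 in the authors' deposited table.

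**Figure D5:**
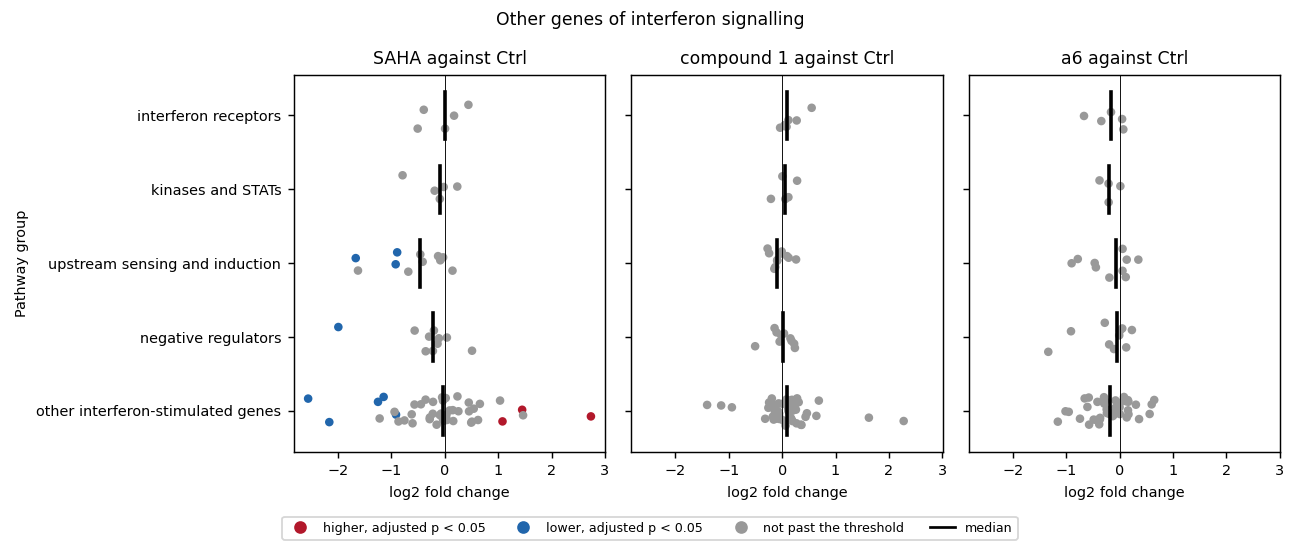
Log2 fold change against Ctrl (horizontal axis) of further interferon pathway genes by group (rows), in 1 panel per compound, where each point is a gene, the black line is the group's median and colour marks an adjusted p under 0.05. With SAHA 3 points are red and 9 blue, none of them a receptor, kinase or STAT, and with compound 1 and a6 all points are grey.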

How the data were processed

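The RNA libraries of MDA-MB-231 cells formed 4 groups of 3. Per the submitters' processing notes cutadapt, DESeq2 and GRCh38 (hg38) were used; the aligner, counter, strandedness and versions were not given in the sources used here. Per the file headers the deposited comparison tables hold a mean normalized count (a signal), a log2 fold change with standard error, the Wald statistic as a score, raw and adjusted p-values, and the authors' G4 lists a number of G4s per gene. Columns with values of single libraries numbered 0, so depth is unknown here.

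Each compound was tested against Ctrl by the authors' Wald test in DESeq2, called at an adjusted p under 0.05 over all genes of a table. Ctrl and compound levels were computed from the mean count and fold change, for equal groups. The trend on GC content was a lowess curve (share 0.3, statsmodels 0.14.6). The script of the difference test was first tested on simulated data; every value given is from the deposited tables. Positions and exons came from GENCODE 29 and promoter windows from RefSeq (GRCh38.p14). G-quadruplex patterns were 4 runs of at least 3 guanines, 1 to 7 bases apart, on either strand. Members and lists were chosen with earlier results of these data known. Named genes are those called in any comparison, the member of each role group with the highest absolute statistic with SAHA, and up to 4 other pathway genes; IFI44L, CMPK2 and others were named to account for all members. Some genes of the lists are not reported here. Tried as alternatives were an adjusted p under 0.01, a limit of 2-fold, joint adjustment over tables or pairs, mean counts of at least 10 and 50, centring on the median, the authors' lists, GC removal (for differences chosen after seeing the data) and an error correlation of 0.5.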

Additional observations from a re-analysis of the deposited data

How the results depend on the processing

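With SAHA the count of called members ran from 7 to 12 over the alternatives, and with compound 1 it was 0 under each. Over all genes, SAHA gave 517 higher and 303 lower at an adjusted p under 0.01, where 7 members were called. By the authors' lists, where 12 were called, SAHA gave 1327 and 609. With a6 the count of members ran from 2 to 4, and was 7 by the authors' lists, which use an unadjusted p under 0.05 and at least 2-fold. Over all genes a6 gave 150 higher and 248 lower by those lists, against 37 and 52 at an adjusted p under 0.05. With an error correlation of 0.5, 3 members in place of 1 differed between a6 and compound 1, beside 0.289% of all genes. Between SAHA and compound 1 there were 9 in place of 3, beside 5.33%. Of those 3, 1 had an adjusted p under 0.01, and between a6 and SAHA the count was 0 under each alternative run. The alternatives gave 115 values of single called genes on the same side of the threshold, 11 that lost it and 0 with another sign. Only centring and GC removal change the log2 value, so under the other alternatives the sign could not differ. The authors' lists could not lose a gene already called with a change of at least 2-fold. These tallies are therefore partly fixed in advance. At an adjusted p under 0.01, IFIT2, IRF7 and SP110 were lost with SAHA, DDX60 with a6 and IFI6 and ISG15 between SAHA and compound 1, and at a mean count of at least 50 DDX60 was not tested. No paired analysis was possible because the tables hold comparisons and no values per library, and leaving out each library in turn could not be done for the same reason.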

Other observations

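Several members are neighbours, and differences between neighbours were not tested. At the OAS cluster on chromosome 12, whose starts lie within 100 kb of each other, OAS1, OAS3 and OAS2 were at 1.16, -0.26 and -0.24 with SAHA in the authors' deposited table, and none passed. HERC6 and HERC5 on chromosome 4 were at -0.81 and -0.62 with SAHA, 0.57 and 0.36 with compound 1 and -0.99 and -0.70 with a6 in the authors' deposited table, and none passed.

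The authors' deposited lists also include lists related to G-quadruplexes (G4s) for each compound and direction. They give a number of G4s per gene, and the region counted was not given in the sources used here. For SAHA and a6 they also hold genes outside the lists of changed genes. Of the 10 members in the authors' deposited list of genes lowered by SAHA, 4 were also in the G4-related list: IRF7 with 12 G4s, ISG15 with 4, IFITM1 with 3 and XAF1 with 2. Of all 609 genes in that list of lowered genes, 47.9% were in the G4-related list, which is 66.5% of that one. For a6, 2 of 6 lowered members, IRF7 and IFITM1, were in the authors' deposited G4-related list, beside 47.6% of 248 lowered genes, which is 36.2% of that list. OASL, DDX60, IFIT2 and IFIT3 were in the authors' deposited lists of genes lowered by SAHA and by a6 and in neither G4-related list. IFI6 and SP110, which SAHA raised, were not in the G4-related list of raised genes, which held 40.3% of all 1327 genes raised by SAHA. With 2 members this absence says little.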
